A study of Zea mays with 12 samples.

Results

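The response of maize (Zea mays) Mo17 embryos to cold imbibition was read from 6 of the 12 RNA-seq libraries of the study, chosen by their line and not by any measured value. Mo17 is an inbred line that the labels describe as sensitive to low temperature. Its seeds took up water in germinating paper for 2 h, at 25 °C (CK_M, the normal condition, 3 libraries) or at 10 °C (LT_M, 3 libraries), and RNA was taken from the embryo. The labels call the 3 libraries of a group biological repeats, and no source used here gives the number of embryos in a library. The 6 libraries of B73, the line labelled as resistant, were sampled in the same way and enter as the comparison line. All 99 genes of the expression table, with symbols from a2 to ARF16 in alphabetical order, were followed in Mo17, and 76 of them passed a filter on low values.

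Imbibition restarts metabolism in a dry seed. While the seed coat and the dense tissue limit oxygen, the embryo gains energy from glycolysis and from fermentation, in which alcohol dehydrogenase regenerates the cofactor that glycolysis needs. Membranes and vesicle traffic are rebuilt at the same time, and in warm-climate crops such as maize uptake of cold water is known to harm germination. The table holds genes from several of these processes, including cytoplasmic aldolase, the alcohol dehydrogenases, the alternative oxidases, a vesicle transport GTPase and enzymes of protein glycosylation.

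Levels are given as FPKM, fragments per kilobase of gene scaled to sequencing depth, and temperature differences as log2 changes at 10 °C against 25 °C with their standard errors. These standard errors come from a fit of all 12 libraries, so the spread within B73 enters them. On the Mo17 libraries alone some were smaller (aos1, 0.10 in place of 0.21) and others larger (a2_1, 0.23 in place of 0.20). The depth of the 6 Mo17 libraries relative to the mean of all libraries was 0.959 to 1.05, and absolute depth is unknown. Within a Mo17 group the libraries had correlations of 0.981 to 0.994, and libraries at different temperatures at 0.977 to 0.995 (Pearson's r on log2(FPKM + 1) of the tested genes; genes are no independent replicates). These ranges overlap. Of the markers for the tissue, the table holds few. Agpsemzm, an ADP-glucose pyrophosphorylase small subunit whose symbol refers to the embryo, stood at 92.92 to 102.41 FPKM in all 6 Mo17 libraries. For aleurone, a2, an anthocyanin gene of the pigmented aleurone, stood at 0 to 0.06 FPKM. For endosperm, the symbol ae1 occurs in separate entries. ae1 on chromosome 4 was listed at 0, while the starch branching enzyme ae1_1 on chromosome 5 stood at 2.3 to 4.36 FPKM in the same libraries. The 0 of ae1 is therefore not read as absence of endosperm transcripts. Carry-over of other seed tissue was not tested.

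Of the tested genes, 2 fell at 10 °C past the threshold, arf1 and a2_1. The product of arf1, a small GTPase of the ADP-ribosylation factor family, recruits coats to budding vesicles at the Golgi. Its level was 64.88, 86.03 and 97.09 FPKM in the libraries at 25 °C and 46.39, 52.44 and 50.61 FPKM at 10 °C. The groups did not overlap, and the libraries at 10 °C lay close together while those at 25 °C were spread more widely. The mean went from 82.7 ± 16.4 to 49.8 ± 3.1 FPKM (SD, n = 3 each), which is 1.66-fold lower, with a log2 change of -0.73 ± 0.14 (SE). The edgeR quasi-likelihood test gave arf1 a Benjamini-Hochberg adjusted p of 0.0168.

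a2_1 is annotated as a membrane protein that transfers glycosyl groups, in the pathway of O-glycan synthesis. Its level was 54.89, 84.21 and 106.56 FPKM at 25 °C and 38.54, 43.82 and 45.97 FPKM at 10 °C. Here too every library at 10 °C lay below every library at 25 °C, but the spread at 25 °C, 1.94-fold from the lowest to the highest library, was as wide as the 1.91-fold distance between the means. Its log2 change was estimated at -0.94 ± 0.20 (SE), and the adjusted p was 0.0257 in the edgeR test. In the coordinates of B73 RefGen_v4, the build that the submitters' processing notes name, arf1 spans positions 3149220 to 3151838 of chromosome 5 (minus strand) and a2_1 positions 53472170 to 53476145 of chromosome 9 (plus strand). In whole embryos, fewer cells that contain a transcript and less of it per cell cannot be told apart.

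**Figure D1:**
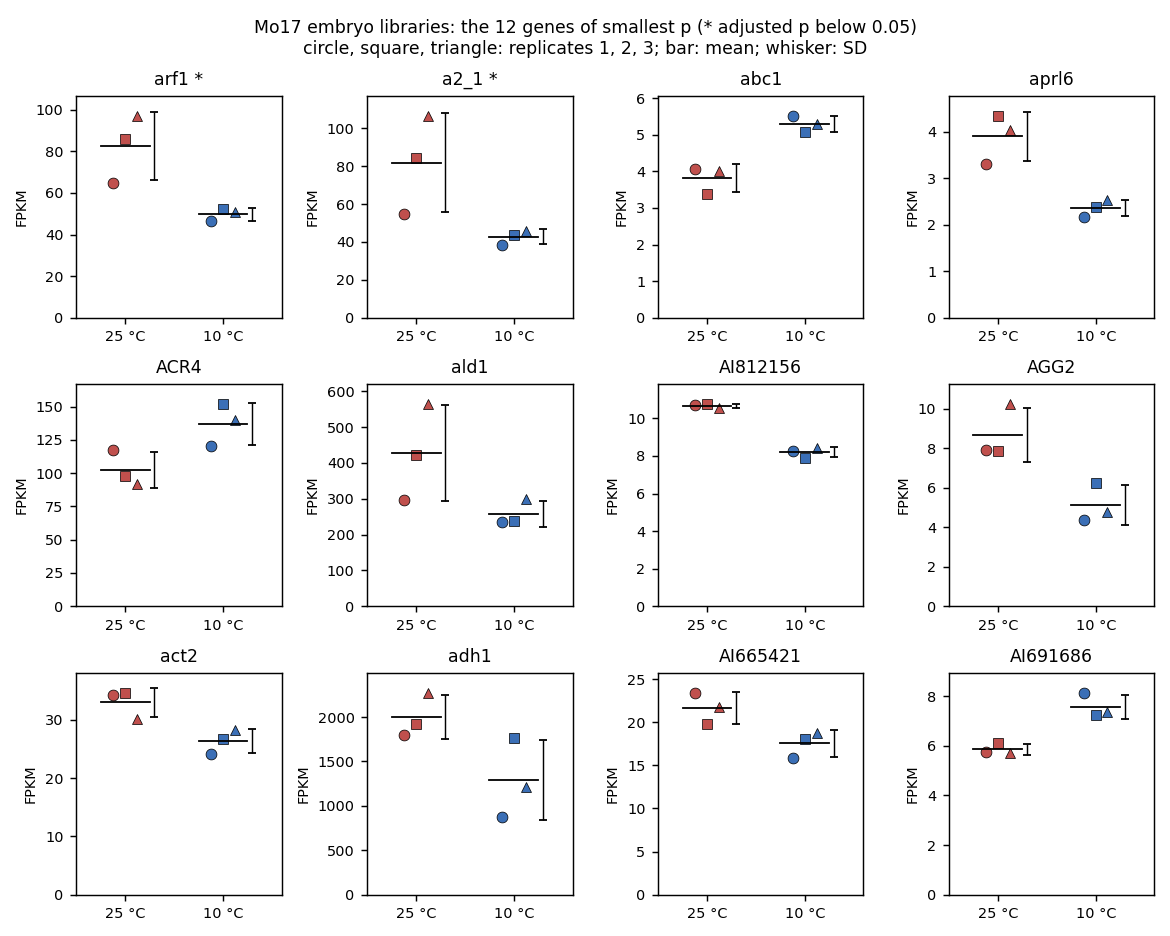
FPKM (vertical axes, starting at 0) in each Mo17 library at 25 °C (red) and 10 °C (blue) for the 12 genes of smallest p, with replicates 1, 2 and 3 as circle, square and triangle, the mean as a bar and the SD as a whisker. arf1 and a2_1, marked with an asterisk, have tightly grouped values at 10 °C and a wide spread at 25 °C, while AI812156 is tightly grouped at both temperatures.

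These 2 genes made up 2.63% of the 76 tested, both of them in the lower direction (2.63% lower and 0% higher). At an unadjusted p under 0.05 there were 17 genes (22.4%), of which 13 had lower values at 10 °C (17.1%) and 4 higher values (5.26%). In 21 genes (27.6%) the 3 libraries at 10 °C did not overlap the 3 at 25 °C, with 15 lower (19.7%) and 6 higher (7.89%). The differences were small throughout. No tested gene differed 2-fold between the temperatures, 8 were at least 1.5-fold lower and 1 was at least 1.5-fold higher, and the median log2 change of the 76 genes was -0.02, with 43 negative and 33 positive values. The median standard error was 0.18.

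**Figure D2:**
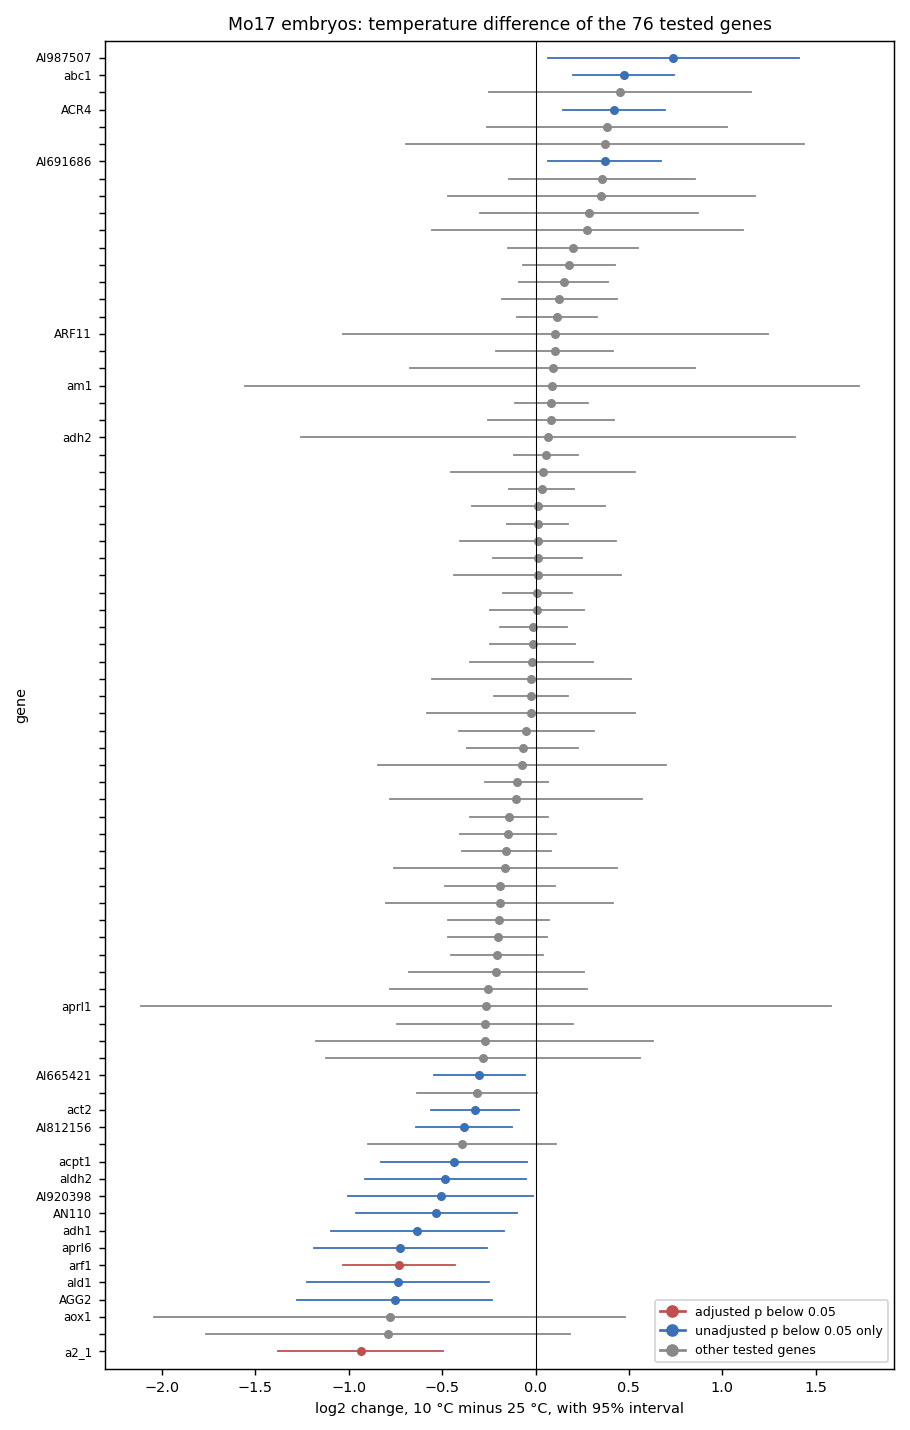
Log2 change at 10 °C against 25 °C in Mo17 (horizontal axis) with its 95% interval for each of the 76 tested genes (vertical axis; names only for genes of unadjusted p below 0.05 or a standard error above 0.5), with genes of adjusted p below 0.05 in red, genes of unadjusted p below 0.05 only in blue and the others in grey. Estimates run from -0.94 for a2_1 to 0.74 for AI987507, and the widest intervals belong to aprl1, am1 and adh2.

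The number of genes called rested on single libraries. It was 0 without Mo17 25 °C replicate 2, without Mo17 25 °C replicate 3, without Mo17 10 °C replicate 1 or without Mo17 10 °C replicate 3. Without Mo17 10 °C replicate 2 it was 2, with adh1 called beside arf1 and a2_1 no longer called. It was 5 without Mo17 25 °C replicate 1 (a2_1, ACR4, ald1, AN110 and arf1) and also 5 without B73 10 °C replicate 1 (a2_1, abc1, AGG2, aprl6 and arf1), a library that enters through the shared estimate of the spread. Leaving out each Mo17 library in turn gave log2 changes of -0.88 to -0.60 for arf1 and -1.16 to -0.70 for a2_1. Quantile normalization gave smaller changes and ended both calls, with -0.47 for arf1 and -0.65 for a2_1 (limma, adjusted p = 0.199 and 0.212). Fitted on the 6 Mo17 libraries alone, arf1 and a2_1 kept their log2 changes of -0.73 and -0.94 at an adjusted p of 0.0899 for each in edgeR, and no gene was called. Of 25 alternatives, most of which keep all 6 Mo17 libraries, arf1 was called under 18 and a2_1 under 16.

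**Figure D3:**
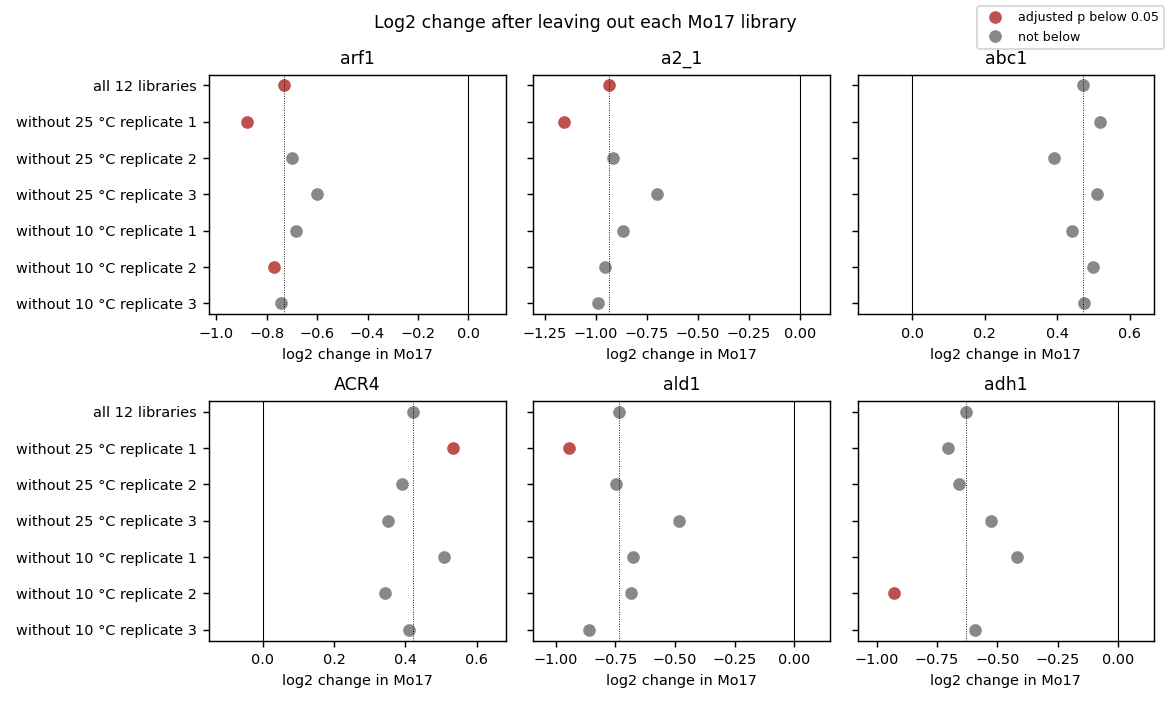
Log2 change in Mo17 (horizontal axis) for 6 genes in the fit of all 12 libraries and after leaving out each Mo17 library (vertical axis), in red where the adjusted p was below 0.05. The sign is the same in every fit shown, while the call of arf1 and a2_1 is lost in most of them.

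Among genes of glycolysis and alcohol fermentation, 0 of 3 passed the threshold, and 2 had an unadjusted p under 0.05. ald1, cytoplasmic fructose-bisphosphate aldolase, stood at 295.76, 421.59 and 563.80 FPKM at 25 °C and 234.15, 236.76 and 298.25 FPKM at 10 °C. A single pair of libraries overlapped, since 25 °C replicate 1 lay just below 10 °C replicate 3. Its log2 change was -0.74 ± 0.22 (SE), with a 95% interval of -1.22 to -0.25, and leaving out each Mo17 library in turn gave -0.94 (edgeR, adjusted p = 0.0147, without 25 °C replicate 1) to -0.48 (adjusted p = 0.323, without 25 °C replicate 3). It was called under 2 of 25 alternatives.

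adh1, the alcohol dehydrogenase that maize seeds use in fermentation, was the second most abundant gene of the table. Its level was 1792.88, 1921.53 and 2272.37 FPKM at 25 °C and 880.42, 1767.64 and 1215.26 FPKM at 10 °C. The groups did not overlap, but 10 °C replicate 2 lay next to the lowest library at 25 °C, and the libraries at 10 °C spread 2.01-fold. The log2 change was -0.63 ± 0.21 (SE; 95% interval -1.09 to -0.17). Leaving out each Mo17 library in turn gave -0.93 (edgeR, adjusted p = 0.0186, without 10 °C replicate 2) to -0.42 (adjusted p = 0.289, without 10 °C replicate 1). It was called under 1 of 25 alternatives, and quantile normalization put its log2 change at 0, a value fixed by its constant rank.

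adh2, the other alcohol dehydrogenase, varied more between replicates than any other tested gene. It stood at 44.28, 6.10 and 46.94 FPKM at 25 °C and 15.74, 41.88 and 44.28 FPKM at 10 °C. Within each temperature 2 libraries were close together and the remaining one was much lower, replicate 2 at 25 °C and replicate 1 at 10 °C. Its log2 change of 0.07 had a 95% interval of -1.26 to 1.39, which takes in 2-fold differences in either direction.

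Of the 3 aldehyde dehydrogenases, which oxidize the aldehydes that fermentation and other pathways leave, none passed. aldh2, the mitochondrial enzyme named RF2B in its description, stood at 23.93, 21.54 and 22.95 FPKM at 25 °C and at 12.75, 17.48 and 18.70 FPKM at 10 °C. Every library at 10 °C was lower, with the lowest in replicate 1, and the log2 change was -0.48 ± 0.20 (SE; unadjusted p = 0.031 and adjusted p = 0.161 in edgeR). AMADH2, an aminoaldehyde dehydrogenase, was at -0.15 ± 0.12 (SE), and the low-level aldh5 at 0.28 ± 0.38 (SE).

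The most abundant gene was AR3, which its KEGG term places among the aldehyde and aldose reductases, with 4754.76, 4260.41 and 4388.29 FPKM at 25 °C and 3520.64, 4128.73 and 4100.85 FPKM at 10 °C. The groups did not overlap, yet the log2 change of -0.19 ± 0.13 (SE) was small against the spread (edgeR quasi-likelihood, adjusted p = 0.484). AR3 made up 38.7% of the summed FPKM of the 99 genes at 25 °C and 39.2% at 10 °C, and adh1 17.3% and 12.9%. That sum was 11204 to 12006 FPKM at 25 °C and 9140 to 10669 FPKM at 10 °C, without overlap (exact permutation test, 2-sided, p = 0.1, the smallest that 3 against 3 libraries allow). Of the mean difference of -1540 FPKM (10 °C minus 25 °C), adh1 accounted for 46.0%, AR3 for 35.8% and ald1 for 11.1%. Without AR3 and adh1 the sum was 4839 to 5346 FPKM at 25 °C and 4738 to 4852 FPKM at 10 °C, and these ranges overlapped. AR3 and adh1 made the largest contributions, so leaving them out shrinks the difference by construction, and the overlap is a description only. AGA1, an alkaline alpha-galactosidase that releases galactose from stored oligosaccharides, stood at 443.59 to 557.56 FPKM, with a log2 change of 0.01 ± 0.11 (SE).

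No gene of mitochondrial respiration or its carriers was called among 5 tested. The alternative oxidases pass electrons to oxygen beside the cytochrome pathway. aox1 stood at 6.83, 32.25 and 27.16 FPKM at 25 °C and at 13.16, 6.97 and 18.40 FPKM at 10 °C, so that the lowest libraries of both temperatures lay close to each other and the groups overlapped widely (log2 change -0.78 ± 0.57, SE). aox1_1 was low, at 0.43 to 0.76 FPKM (-0.25 ± 0.24, SE), and aox3 stood at 0 to 0.38 FPKM and was not tested. The mitochondrial ADP/ATP carriers ANT1, at 438.58 to 512.84 FPKM, and ANT2, at 167.07 to 194.50 FPKM, had log2 changes of 0.01 ± 0.16 and 0.08 ± 0.15 (SE).

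The genes of adenylate and purine metabolism stayed close to 0. adk1, an adenylate kinase, had a log2 change of -0.07 ± 0.14 (SE), adss1, named for adenylosuccinate synthesis, -0.02 ± 0.15 (SE), and akin1, a subunit-like protein of the SnRK1 energy-sensing kinase, -0.01 ± 0.08 (SE). For akin1, whose libraries ran from 33.18 to 38.03 FPKM, the 95% interval was -0.19 to 0.17. The signs of these 3 small values differed between scalings and are not read as directions.

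**Figure D4:**
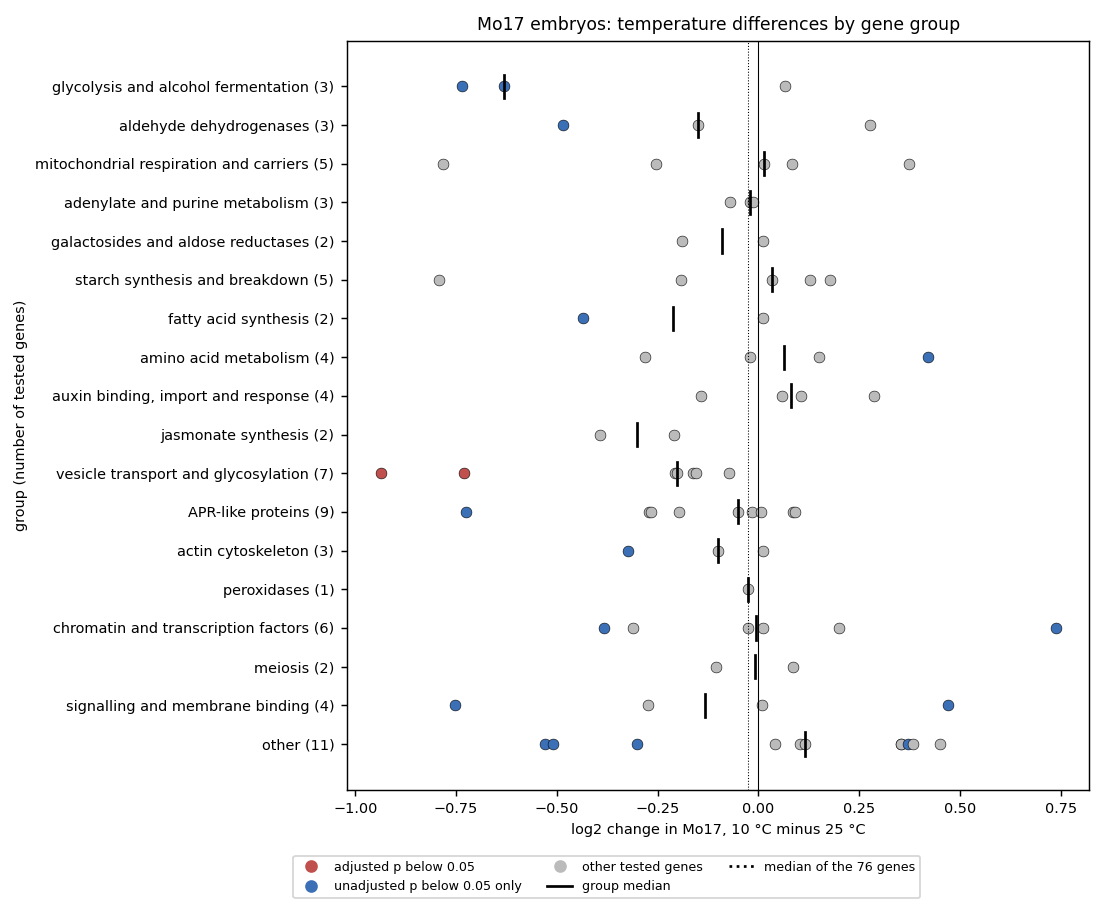
Log2 change in Mo17 (horizontal axis) of the tested genes in each group of related function (vertical axis, with the number tested), with genes of adjusted p below 0.05 in red and of unadjusted p below 0.05 only in blue. Black bars are group medians and the dotted line is the median of the 76 genes, -0.02. The 7 genes of vesicle transport and glycosylation, a group put together with earlier results known, all lie left of 0. Of all 76 tested genes, 43 do.

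In starch metabolism, 0 of 5 genes passed, with a median log2 change of 0.03. AGPLS3, a large subunit of the ADP-glucose pyrophosphorylase that makes the glucosyl donor for starch, had higher values in every library at 10 °C: 23.31, 23.24 and 23.69 FPKM against 22.68, 21.09 and 18.28 FPKM. Its log2 change was 0.18 ± 0.11 (SE). The small subunit Agpsemzm was at 0.03 ± 0.08 (SE), and AGP2, another large subunit, at 0.13 ± 0.14 (SE). ae1_1, a starch branching enzyme, was at -0.19 ± 0.28 (SE), and amyb5, a beta-amylase that breaks starch down, at -0.79 ± 0.44 (SE), with 0.97, 1.35 and 1.73 FPKM at 25 °C and 0.45, 1.02 and 0.87 FPKM at 10 °C.

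Fatty acid synthesis was represented by acpt1, annotated as an acyl carrier protein, and by ACC1, the acetyl-CoA carboxylase that makes malonyl-CoA. acpt1 stood at 7.84, 7.94 and 10.11 FPKM at 25 °C and at 5.32, 6.87 and 6.94 FPKM at 10 °C. Its libraries did not overlap, but the log2 change of -0.44 ± 0.18 (SE) did not pass (edgeR, adjusted p = 0.161). ACC1 had a log2 change of 0.01 ± 0.20 (SE), with libraries from 62.42 to 83.55 FPKM.

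Of 4 genes of amino acid metabolism none passed. ACR4, whose annotation is in amino acid regulation, had the second smallest p among the genes with higher values at 10 °C. Its levels were 117.47, 97.82 and 92.04 FPKM at 25 °C and 120.43, 151.72 and 139.64 FPKM at 10 °C. The groups only just separated, and its log2 change was 0.42 ± 0.12 (SE), with edgeR's adjusted p at 0.0829. It was called under 3 of 25 alternatives, over which its log2 change ran from 0.34 to 0.53 and its adjusted p from 0.00381 to 0.307. als1, an acetolactate synthase of the first step of branched-chain amino acid synthesis, was at 0.15 ± 0.11 (SE). akh2, of the aspartate pathway, was at -0.28 ± 0.38 (SE).

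The hormone genes gave no call. In jasmonate synthesis, aoc1, allene oxide cyclase, stood at 7.26, 6.46 and 7.46 FPKM at 25 °C and 5.95, 3.89 and 6.28 FPKM at 10 °C, without overlap, with a log2 change of -0.39 ± 0.23 (SE). aos1, the allene oxide synthase of the preceding step and the third most abundant gene at 25 °C, stood at 529.80 to 645.56 FPKM at 25 °C and 466.25 to 559.95 FPKM at 10 °C (-0.21 ± 0.21, SE). Of the auxin genes, the auxin-binding proteins abp1 and abp4 were at -0.14 ± 0.09 and 0.29 ± 0.27 (SE), and the auxin response factors ARF16 and ARF11 at 0.06 ± 0.08 and 0.11 ± 0.52 (SE). For ARF11, 1 B73 library at 10 °C stood at 6.30 FPKM and the others at 1.18 and 1.24 FPKM, and on the Mo17 libraries alone its standard error was 0.12. The 6 genes grouped as other hormones (acco20, ACO31, acs7, an1, an2 and abph1) were too low to test, with an1 highest at 1.08 FPKM in 1 library. Of these, an2 is not read as a hormone gene.

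Vesicle transport and glycosylation was the group that held both called genes, 2 of its 7 tested members, against 2 of the 76 tested genes (2.63%). All 7 estimates were negative, against 43 of the 76, although AI901738 turned to 0.00 with median-ratio scaling. The median log2 change was -0.20 against -0.02 over the 76 genes. The group was put together with earlier results of these data known, so its count is a description. a4, which carries the same O-glycan annotation as a2_1, stood at 37.11, 31.59 and 39.96 FPKM at 25 °C and 30.14, 32.18 and 31.84 FPKM at 10 °C, with a log2 change of -0.21 ± 0.11 (SE) that did not pass. a4Lea, a fucosyltransferase of the Golgi, had lower values in each library at 10 °C, 14.08, 13.86 and 13.60 FPKM against 17.59, 15.32 and 14.90 FPKM (-0.20 ± 0.12, SE). AI665898, a reticulon that shapes the endoplasmic reticulum, was at -0.16 ± 0.11 (SE), and ap17, the sigma subunit of the AP-2 adaptor of endocytosis, at -0.16 ± 0.27 (SE).

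The 9 APR-like genes are named for adenosine phosphosulfate reductase. aprl1 and aprl2 are annotated to sulfate assimilation, and the other members to protein disulfide isomerase activity in the endoplasmic reticulum. aprl6, of the latter kind, stood at 3.31, 4.34 and 4.04 FPKM at 25 °C and 2.17, 2.37 and 2.53 FPKM at 10 °C. These groups were well apart, and the log2 change was -0.72 ± 0.21 (SE), but its adjusted p was 0.0829 (edgeR quasi-likelihood, Benjamini-Hochberg). No other member had an unadjusted p under 0.05, and estimates ran from -0.27 to 0.09. The interval of aprl1, -2.11 to 1.58, was wide. The estimate of the spread includes B73, where 1 library at 10 °C stood at 29.35 FPKM and the others at 1.62 and 2.00. Fitted on the Mo17 libraries alone, its standard error was 0.17 in place of 0.84.

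The actins differed in their estimates. act2 stood at 34.17, 34.63 and 30.19 FPKM at 25 °C and 24.19, 26.76 and 28.19 FPKM at 10 °C, without overlap, with a log2 change of -0.32 ± 0.11 (SE), and edgeR gave an adjusted p of 0.0906. act1, far more abundant per length, ran from 311.23 to 356.64 FPKM, with a log2 change of 0.01 ± 0.07 (SE) and a 95% interval of -0.15 to 0.17. The difference between the 2 genes was not tested, and how the authors' counting assigned reads shared by such similar genes is not known. ADF3, an actin-depolymerizing factor, had lower values in each library at 10 °C, 80.12, 81.34 and 81.49 FPKM against 90.85, 81.94 and 87.54 FPKM, a log2 change of -0.10 ± 0.08 (SE) that turned to 0.071 under quantile normalization.

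Among 6 tested genes of chromatin and transcription none passed. AI812156, a predicted Elongator protein, of a complex that assists RNA polymerase, had tight replicates: 10.73, 10.75 and 10.56 FPKM at 25 °C against 8.25, 7.90 and 8.42 FPKM at 10 °C. The gap between the groups was far wider than the range within either, and the log2 change was -0.38 ± 0.12 (SE). It did not pass, with edgeR's adjusted p at 0.0829. It was called under 1 of 25 alternatives, the fit without a mean-variance trend (adjusted p = 0.0485), and its log2 change was -0.31 with median-ratio scaling and -0.23 with quantile normalization (adjusted p = 0.223 and 0.285). AI987507, an INDETERMINATE-related zinc finger factor, stood at 0.65, 0.82 and 0.36 FPKM at 25 °C and 0.97, 1.12 and 0.97 FPKM at 10 °C, without overlap. Its log2 change of 0.74 ± 0.30 (SE) was the highest of the 76 in this fit, at levels near the filter. It was 0.25 with quantile normalization, below the 0.68 of abc1, and 0.47 without 25 °C replicate 3.

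The Alfin-like genes encode PHD-finger proteins that bind histone marks. ALF6 had lower values in all 3 libraries at 10 °C, 11.08, 14.85 and 14.73 FPKM against 18.10, 15.46 and 16.91 FPKM, with a log2 change of -0.31 ± 0.15 (SE). ALF7 was at 0.01 ± 0.19 (SE) and ALF19 at 0.20 ± 0.16 (SE). ALF10 was listed at 0 in every Mo17 library.

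Of the genes grouped as signalling and membrane binding, AGG2 and abc1 pointed in opposite directions. AGG2 shares its symbol with a gamma subunit of the heterotrimeric G protein in Arabidopsis. Its levels were 7.92, 7.86 and 10.22 FPKM at 25 °C and 4.35, 6.26 and 4.79 FPKM at 10 °C, a log2 change of -0.75 ± 0.24 (SE), and edgeR gave an adjusted p of 0.0845. abc1, a homolog of a yeast gene annotated with protein kinase activity, stood at 4.06, 3.38 and 4.02 FPKM at 25 °C and at 5.52, 5.09 and 5.29 FPKM at 10 °C, 1.39-fold higher. The groups were clearly separated, and abc1 had the third smallest p, with a log2 change of 0.47 ± 0.12 (SE; adjusted p = 0.0711). It was called under 6 of 25 alternatives, among them DESeq2 and median-ratio scaling, and its log2 change stayed between 0.39 and 0.68.

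anx2, an annexin that binds phospholipid in the presence of calcium, ran from 17.45 to 31.16 FPKM at 25 °C and from 10.63 to 30.64 FPKM at 10 °C, a 2.88-fold spread at 10 °C that covered most of the range at 25 °C. The meiosis genes am1 and afd1, at 5.28 to 9.38 and 2.70 to 3.87 FPKM, had log2 changes of 0.09 ± 0.75 and -0.10 ± 0.31 (SE). The standard error of am1, which stood at 0 to 0.22 FPKM in B73, was 0.25 when the Mo17 libraries were fitted alone. apx2, an ascorbate peroxidase that removes hydrogen peroxide, ran from 45.68 to 49.79 FPKM over the 6 libraries, with a 95% interval of the log2 change of -0.22 to 0.17.

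Further genes with an unadjusted p under 0.05 fall in no group. AI691686, annotated to RNA binding and nucleocytoplasmic transport, had 5.76, 6.09 and 5.70 FPKM at 25 °C and 8.13, 7.25 and 7.34 FPKM at 10 °C (log2 change 0.37 ± 0.14, SE). AN110, an AN1-type zinc finger protein, had 11.03, 16.82 and 18.88 FPKM at 25 °C and 11.94, 9.38 and 11.04 FPKM at 10 °C (-0.53 ± 0.20, SE), where 25 °C replicate 1 lay among the libraries at 10 °C. AI665421, a membrane protein annotated with zinc binding, was lower in all 3 libraries at 10 °C, at 15.83 to 18.80 against 19.79 to 23.41 FPKM (-0.30 ± 0.11, SE). AI920398, which KEGG places in autophagy, was at -0.51 ± 0.23 (SE) with 1 library of each group overlapping. For these 4 genes edgeR's adjusted p lay between 0.121 and 0.202.

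Single libraries stood out in parts of this pattern. Mo17 10 °C replicate 1 was the lowest of its group in 12 of the 15 genes whose libraries were lower at 10 °C without overlap, and in 33 of the 76 tested genes, and its part in the lower values was not tested beyond leaving it out. The genes with the widest spread within a Mo17 temperature were adh2 (7.70-fold at 25 °C), aox1 (4.72-fold at 25 °C), anx2 (2.88-fold at 10 °C), AI901738 (2.54-fold at 25 °C) and aap1, an acylaminoacyl-peptidase (2.52-fold at 25 °C). In adh2 and aap1 it was 25 °C replicate 2 that lay far below, at 6.10 and 47.45 FPKM. In aox1 the low library was 25 °C replicate 1, so that no single library was low in all 5. The median coefficient of variation was 11.1% at 25 °C and 10.7% at 10 °C.

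The remaining 23 genes did not pass the filter and were not compared. Of these, 5 were listed at 0 in all 6 Mo17 libraries (abph1, acs7, ae1, ALF10 and ANAC030). The highest value among them was that of ANAC044, a NAC transcription factor annotated to the DNA damage checkpoint, at 1.97 FPKM in 10 °C replicate 3, with the other Mo17 libraries at 0.27 to 1.08 FPKM.

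Whether Mo17 responded differently from B73 was asked through the line by temperature interaction of the same fit. It called 0 of 76 genes (0%) in edgeR, where 0.432 was the smallest adjusted p. The unadjusted p was under 0.05 in 6 genes (7.89%). DESeq2 and limma on log2(FPKM + 1) also called 0, each with 5 genes at an unadjusted p under 0.05. For arf1, B73 stood at 71.92, 67.31 and 64.24 FPKM at 25 °C and 46.25, 57.10 and 50.52 FPKM at 10 °C, a log2 change of -0.40 ± 0.13 (SE) beside -0.73 in Mo17, and the interaction was -0.33 with a 95% interval of -0.75 to 0.09. In arf1 the lines were near each other at 10 °C, at 46.39 to 52.44 FPKM in Mo17, and Mo17 had the higher mean at 25 °C. B73 RefGen_v4 is the only build named, and how well reads of each line mapped to it was not tested. Differences in level between the lines, here and below, are therefore given as values only.

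a2_1 followed the same order of levels. B73 stood at 59.49, 43.42 and 50.91 FPKM at 25 °C and 41.59, 42.62 and 44.50 FPKM at 10 °C, a log2 change of -0.26 ± 0.20 (SE), and the interaction was -0.68 ± 0.28 (SE; 95% interval -1.30 to -0.06, unadjusted p = 0.0341, edgeR quasi-likelihood). a4, its counterpart, had the same sign of interaction, -0.36 ± 0.16 (SE), with a log2 change of 0.16 ± 0.11 (SE) in B73. The other genes with an unadjusted interaction p under 0.05 were abc1 (0.55 ± 0.17, SE), AI691686 (0.59 ± 0.19, SE), AR3 (-0.42 ± 0.19, SE) and aprl1 (-2.79, from the B73 library at 29.35 FPKM). For abc1, B73 stood at 5.50 to 6.40 FPKM at 25 °C and 5.31 to 6.03 FPKM at 10 °C, so that Mo17 lay below B73 at 25 °C and the ranges of the lines overlapped at 10 °C. AR3 in B73 was at 1454.13 to 1975.76 FPKM at 25 °C and 1878.16 to 2170.53 FPKM at 10 °C, a log2 change of 0.23 ± 0.13 (SE) against -0.19 in Mo17.

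In B73 the temperatures did not overlap in 10 of the 76 genes (13.2%). In 5 of the 76 genes they did not overlap in either line, all 5 in the same direction in both lines. These were arf1, aprl6, AI812156 and adh1 with lower values at 10 °C and ACR4 with higher values. The 5 genes are 23.8% of the 21 such genes in Mo17 and 50% of the 10 in B73. Whether 5 exceeds what the shares of 27.6% in Mo17 and 13.2% in B73 would give was not tested. AI812156 had log2 changes of -0.38 ± 0.12 in Mo17 and -0.32 ± 0.12 in B73 (SE), and ACR4 0.42 ± 0.12 and 0.35 ± 0.12 (SE). ald1 and adh1 had larger estimates in B73, -1.04 ± 0.22 and -0.87 ± 0.21 (SE), with interactions of 0.31 (95% interval -0.38 to 0.99) and 0.24 (-0.42 to 0.89). The intervals leave room for equal responses and for responses that differ by more than 1.5-fold. In B73 ald1 passed the threshold narrowly and adh1 did not (edgeR, adjusted p = 0.0499 and 0.0657). adh2 in B73, at 0.3 to 1.57 FPKM, had a log2 change of -1.41 ± 0.69 (SE) that did not pass. Calls in B73 were not followed under the alternatives.

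**Figure D5:**
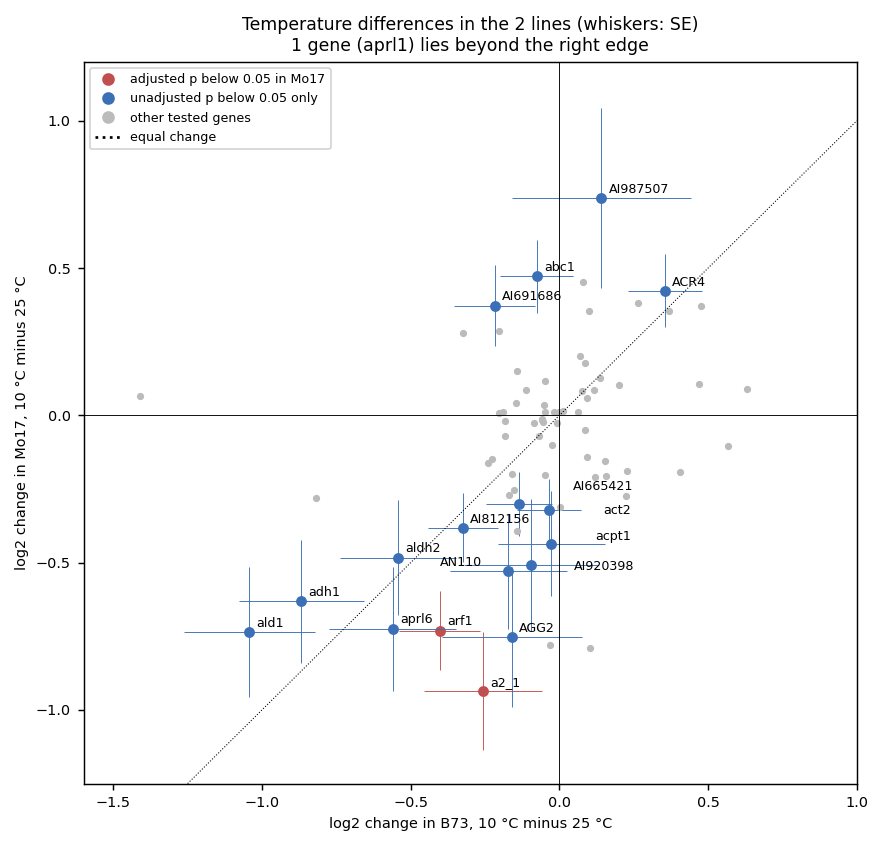
Log2 change at 10 °C against 25 °C in B73 (horizontal axis) and in Mo17 (vertical axis), with whiskers of 1 SE and names for the 17 genes of unadjusted p below 0.05 in Mo17. ald1, adh1, aprl6, arf1, AI812156 and ACR4 have the same sign in both lines, while abc1 and AI691686 have positive values in Mo17 and negative values in B73.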

How the data were processed

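RNA of Mo17 and B73 embryos was sequenced in 12 libraries. The authors deposited, per the file headers, a count and an FPKM for each of 99 genes in each library. The build B73 RefGen_v4 and the tools StringTie 1.3.4d, HISAT2 2.0.4, cutadapt 1.9, DESeq2 and edgeR come from the submitters' processing notes, without roles. Libraries kept strand by dUTP marking, per the labels' protocols, but how counting treated it was not stated. The smallest deposited count above 0 is 3, so counts may not be single fragments, and no counting interval is given. Relative depth came from the ratio of count to FPKM over the 48 genes that reached 5 FPKM in every library.

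edgeR 4.0.16 (R 4.3.3) was run with library sizes proportional to that depth, without TMM, on the 76 genes that reached 1 FPKM in 3 or more libraries, as 1 model of 4 group means across all genes. Tests were 2-sided, with Benjamini-Hochberg adjustment over the 76 genes and a threshold of 0.05. Log2 changes are without a prior count, and standard errors are the log2 change divided by the square root of F. Alternatives used limma 3.58.1 and DESeq2 1.42.0. The procedure was tested on simulated data. Its pass mark for recovery was set on changes larger than any seen in Mo17, and recovery of smaller ones is not given here. Genes were named if they passed, had an unadjusted p under 0.05 or did not overlap between temperatures, with groups and counterparts beside them; some genes are not reported here. Members and gene groups were chosen with earlier results of these data known.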

Additional observations from a re-analysis of the deposited data

How the results depend on the processing

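The count of genes called in Mo17 was 2. It was 4 with median-ratio scaling, 5 with DESeq2, 5 without the mean-variance trend and 0 with the 6 Mo17 libraries alone. Leaving out each library gave 0 to 5. The other filters, TMM, limma, quantile normalization and robust estimation gave 2 or 3, although quantile normalization called abc1, AI691686 and aldh2. The interaction called 2 genes, abc1 and AI691686, with quantile normalization and 0 under the others run for it, each library left out included. Deviations of same-numbered Mo17 libraries from their group means had r = -0.13, -0.43 and 0.44, and differently numbered ones -0.49 to 0.47. Deviations within a group sum to 0, so these values cannot decide whether the numbers mark a pairing, and the labels name none. The replicate block called 1 gene, arf1, over all libraries, 0 for the interaction, and 0 on the 6 Mo17 libraries alone. Of the 24 genes followed, 21 kept their sign throughout, and with quantile normalization adh1 and AR3 went to 0, which equal rank fixes, and ADF3 to 0.071. Median-ratio scaling moved the median log2 change from -0.02 to 0.05. Levels near 1 FPKM, unknown depth and 3 libraries a group limit what can be detected.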
